A study of Arabidopsis thaliana with 6 samples.

Results

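Transcripts of molecular chaperones were compared between Arabidopsis seedlings exposed to ozone and seedlings exposed to clean air. The set comprised 57 loci encoding small heat shock proteins (small HSPs), HSP70 proteins, J-domain proteins and FKBP-type chaperones. A locus entered when the array annotation gave it a probe set assigned to that gene alone, which held for 29 of the 57, among 13286 loci with such a probe set on the array. These were 9 of 17 small HSP loci, 2 of 10 HSP70 loci, 17 of 28 J-domain loci and 1 of 2 FKBP loci. The other 28 were not analysed here, among them both cytosolic class II small HSPs, the chloroplast small HSP and all 8 listed chloroplast J-domain loci.

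Small HSPs bind unfolding proteins and hold them soluble without using ATP. HSP70 proteins then refold such clients in cycles of ATP hydrolysis, and J-domain proteins deliver the clients and trigger the hydrolysis. In plants the cytosol, the endoplasmic reticulum (ER), plastids and mitochondria have their own sets. Many of the genes are known to be induced by heat, and the ER set also by the accumulation of unfolded proteins in the ER.

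All 6 samples were whole Col-0 wild-type seedlings from the same seed stock at developmental stage 1.04, grown on 0.8% agar at 20 °C in 16 h of light and 8 h of dark. The ozone group was fumigated with 500 ppb ozone for 6 h in sealed chambers, and the control group received air scrubbed with charcoal and Purafil for the same 6 h. RNA was taken straight after fumigation. Each group had 3 replicates, each on 1 Affymetrix ATH1 array, and the labels do not say whether they were separate cultures or pools of plants.

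Values are MAS5 signals on a linear scale, with array medians from 41.7 to 49.5. Pairs of arrays had Spearman correlations of at least 0.952 in the control group and 0.956 in the ozone group, against 0.879 to 0.930 for an ozone with a control array. A linear model on log2 signals (limma) was fitted to the 13648 probe sets with a geometric mean signal of at least 31.2 over the 6 arrays. A change was called at a Benjamini-Hochberg adjusted p under 0.05. Log2 fold changes are ozone minus control. Of 3 root markers, the ER-body protein gene PYK10 was bright, between 1806 and 3350 on the 6 arrays, while the expansins EXPA7 and EXPA18 were dim, between 21.5 and 47.6 and between 21.0 and 45.5. The light-harvesting gene LHCB4.1, the single leaf marker measured, lay between 2000 and 4076.

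Of the 29 chaperone loci, 22 reached the level needed for testing. Among them 11 were called higher in ozone, 0 were called lower and 11 did not pass; on the whole array 13.0% of the tested probe sets were called higher and 14.9% lower. Of the 11 loci called higher, 5 had a control level below 31.2 and so passed the filter through their ozone signal, so the count over tested loci is a description only. Fitted without the filter, all 29 loci had a test: 13 were higher and 0 were lower, against 8.34% and 8.04% of all probe sets. The loci were chosen with earlier results of these data known. This contrast with the array, and those given below for medians, overlap, classes and lists, are therefore descriptions only. Loci with a negative change and an unadjusted p under 0.05 in limma were AT1G54050 and AT3G08910, 2 in either fit. With the replicate number as a block the counts were 12 higher and 2 lower of the 22, against 19.1% and 30.0% of the array; with the block and no filter they were 14 and 1 of the 29, against 12.3% and 16.7%. The median log2 fold change of the 29 was 0.52, against -0.17 for all probe sets. Ozone and control arrays did not overlap for 14 of the 29 loci with ozone higher and for 3 with ozone lower, against 13.8% and 21.8% of all probe sets.

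**Figure D1:**
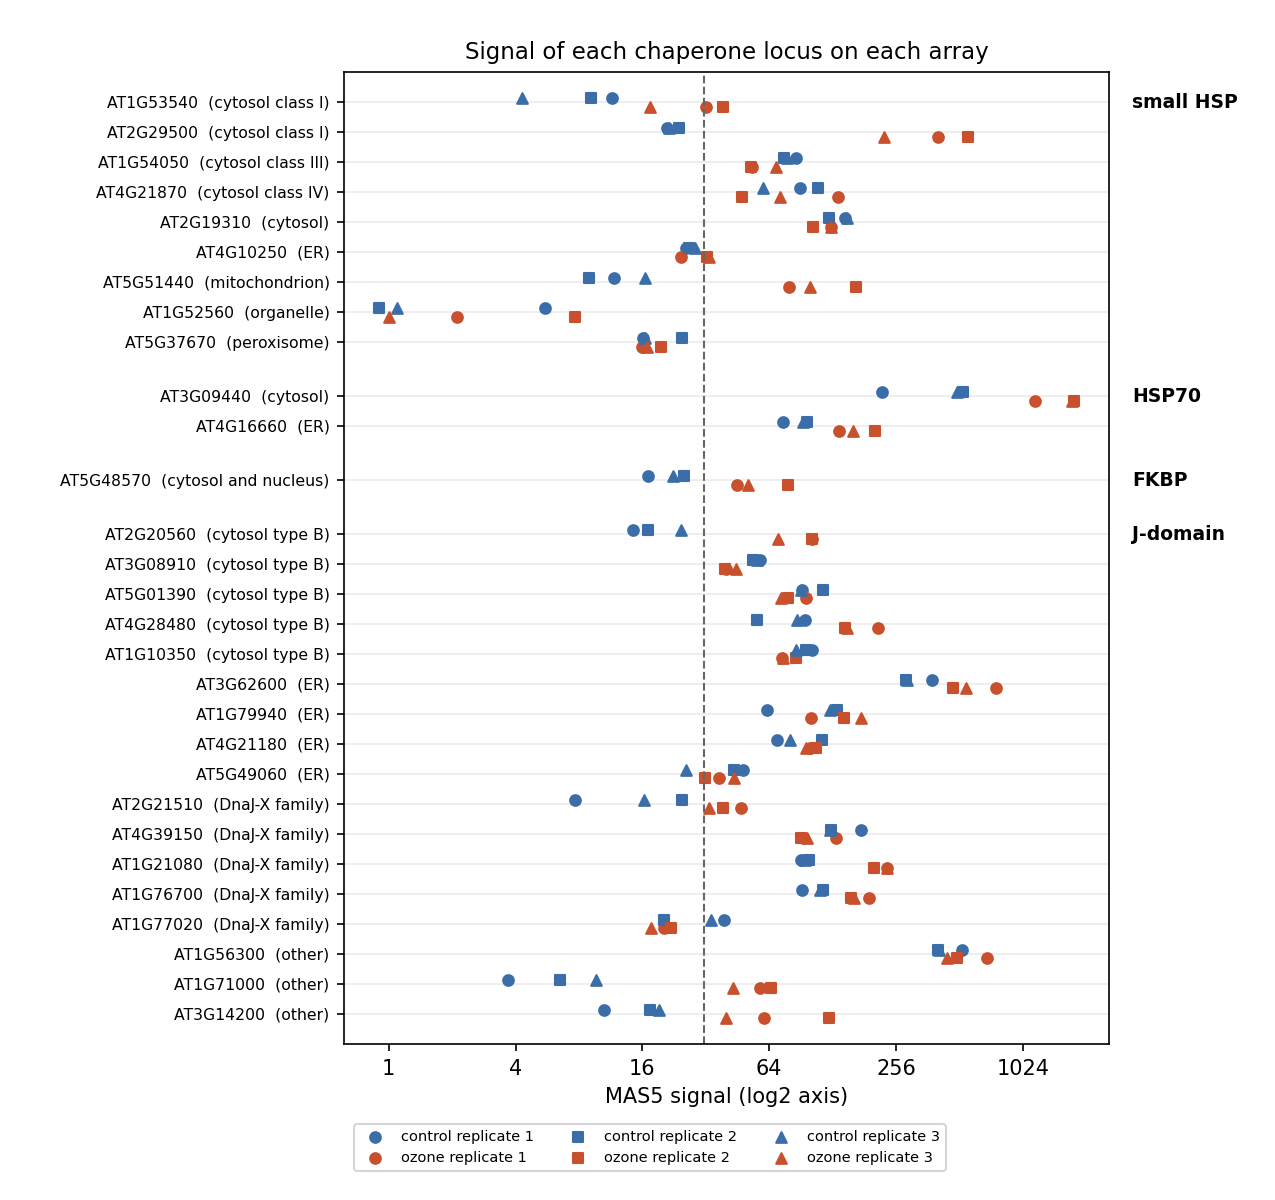
MAS5 signal (log2 axis) of the 29 chaperone loci on the 3 control arrays (blue) and the 3 ozone arrays (red), with 1 symbol per replicate number; the dashed line marks the filter level of 31.2. Ozone and control arrays lie apart for 14 loci with ozone higher and for 3 with ozone lower, and overlap for 12.

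Among small HSPs, strong increases stood beside loci that did not pass. AT2G29500, a cytosolic class I small HSP, had signals of 21.0, 23.9 and 21.5 on the control arrays and of 405, 565 and 225 on the ozone arrays (replicates 1, 2 and 3). Every ozone array was far above every control array, and the ozone arrays spread more widely than the controls. The mean went from 22.1 ± 1.55 to 398.5 ± 170 (SD, n = 3 each), which is an 18.0-fold difference. The log2 difference was 4.07 with an SE of 0.315 (limma adjusted p = 0.000167), rank 57 from the top among 13648 probe sets. The other class I locus, AT1G53540, was dim, with 11.5, 9.10 and 4.30 in control and 32.0, 38.6 and 17.4 in ozone. Its groups did not overlap, but it lay below the filter; fitted without the filter its log2 fold change was 1.86 (limma adjusted p = 0.0397), or 0.88 with 16 added to every signal (limma adjusted p = 0.0331).

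The mitochondrial small HSP AT5G51440 was at 11.7, 8.90 and 16.5 in control and at 79.8, 165 and 100 in ozone. Here too all ozone arrays were above all control arrays, with the highest value in ozone replicate 2. The difference on the log2 scale was 3.19 (SE 0.333, limma adjusted p = 0.000552), rank 119 from the top.

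The remaining 6 small HSP loci were not called. AT1G54050, of cytosolic class III, was 79.6 ± 5.73 in control and 58.1 ± 9.37 in ozone (SD, n = 3 each). Its ozone arrays were all below its control arrays, with a log2 fold change of -0.46 (limma adjusted p = 0.0968); with the replicate number as a block it passed as lower (limma adjusted p = 0.0397, and 0.0756 with the block and no filter). The cytosolic loci AT4G21870 (class IV) and AT2G19310 differed by -0.11 and -0.24 on the log2 scale without passing (limma adjusted p = 0.868 and 0.318), with overlap between the groups. AT4G21870 scattered most among these, from 47.3 to 136 within the ozone group alone.

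The ER small HSP ATHSP22.0 and the peroxisomal AT5G37670 stayed between 24.5 and 33.0 and between 15.9 and 24.7 on all 6 arrays. The organellar AT1G52560 lay between 0.90 and 7.70. These 3 were below the filter, their groups overlapped, and none was called in the fit without it (limma adjusted p = 0.735, 0.858 and 0.771). Of the 9 small HSP loci, 3 were thus called higher and 0 lower without the filter, against 8.34% and 8.04% of all probe sets. The 3 were 2 cytosolic class I loci and 1 mitochondrial locus. Cytosolic class II and the chloroplast had no small HSP locus with a probe set of its own.

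Both HSP70 loci with a probe set of their own rose, against 13.0% of the tested probe sets of the array. AT3G09440, a cytosolic HSP70, was among the brightest members, with 220, 534 and 500 in control and 1171, 1800 and 1751 in ozone. Replicate 1 was the lowest array in either group, and the lowest ozone value was still more than the highest control value. The log2 fold change was 1.99 (SE 0.351, limma adjusted p = 0.00521), and the log2 differences between arrays of the same number were 2.41, 1.75 and 1.81. AT4G16660, an HSP70-like protein of the ER, went from 74.4, 96.3 and 92.5 to 138, 203 and 160 (log2 fold change 0.92, SE 0.199, limma adjusted p = 0.0120). Cytosolic HSP70 genes are close copies of each other, and whether probes for one also bound transcripts of another was not tested.

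The FKBP locus AT5G48570, known as FKBP65 or ROF2, encodes a peptidyl-prolyl isomerase. It was at 17.0, 25.1 and 22.4 in control and at 45.0, 78.9 and 51.0 in ozone, without overlap. The log2 fold change was 1.41 (SE 0.272, limma adjusted p = 0.00738).

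**Figure D2:**
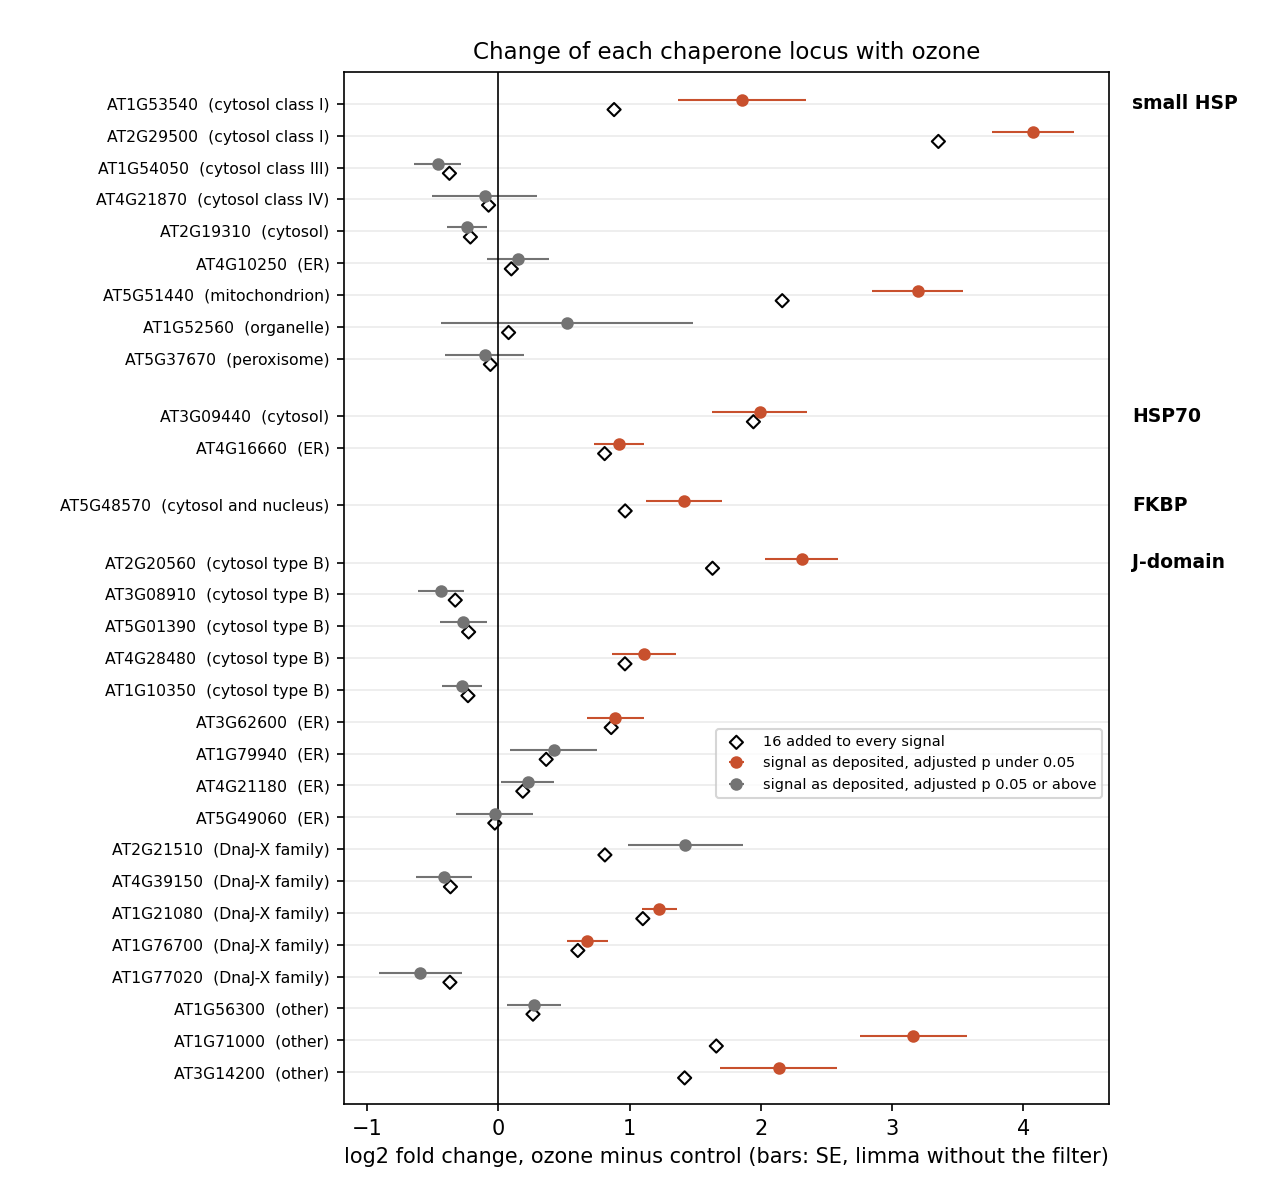
Log2 fold change (ozone minus control) of each of the 29 loci with its standard error from limma with no filter on dim signals; red marks an adjusted p under 0.05, and open diamonds give the change after 16 is added to every signal. The 13 red loci span 0.68 to 4.07, or 0.60 to 3.35 with 16 added.

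J-domain loci divided within each subfamily. Of the 17 with a probe set, 14 were tested, of which 6 rose, 0 fell and 8 did not pass. Among tested probe sets of the array 13.0% rose and 14.9% fell. Of the risers, AT2G20560 and AT3G14200 had mean control signals of 18.7 and 15.7, and reached the filter level of 31.2 only through ozone arrays. In the unfiltered fit 7 of 17 were called higher and 0 lower, beside array shares of 8.34% and 8.04%. The 17 loci had a median change of 0.42 on the log2 scale. Their groups were apart with ozone higher for 8 loci, apart with ozone lower for 2 and overlapping for 7, where 13.8% of all probe sets were apart with ozone higher and 21.8% with ozone lower.

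The cytosolic type B proteins, relatives of yeast Sis1, all 5 had a testable signal. AT2G20560 had the steepest change among them, from 14.5, 17.1 and 24.5 in control to 102, 103 and 70.7 in ozone. All 3 ozone arrays were well above the controls (log2 fold change 2.31, SE 0.263, limma adjusted p = 0.000823). AT4G28480 went from 94.9, 56.0 and 86.7 to 210, 146 and 150, a 2.13-fold difference of means (limma adjusted p = 0.0139). AT3G08910, AT1G10350 and AT5G01390 differed by -0.44, -0.28 and -0.27 on the log2 scale and were not called (limma adjusted p = 0.0896, 0.246 and 0.323). For AT3G08910 and AT1G10350 all ozone arrays were nevertheless below all control arrays.

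In the family with a DnaJ-X domain, AT1G21080 was the most even riser, with 90.4, 99.1 and 94.8 in control and 233, 200 and 233 in ozone. The spread within either group was small against the gap between them (log2 fold change 1.22, SE 0.149, limma adjusted p = 0.00110). AT1G76700 rose less, from 106 ± 12.6 to 170 ± 18.5 (SD, n = 3 each; log2 fold change 0.68, SE 0.169, limma adjusted p = 0.0206). Its call was lost without ozone replicate 1 or control replicate 3 (adjusted p = 0.0557 and 0.0605 in limma). AT2G21510 was below the filter, and went from 7.70, 24.7 and 16.3 to 46.9, 38.6 and 33.0 in ozone (adjusted p = 0.0683 in limma without the filter, and 0.0371 with the block as well). AT4G39150 went the other way, from 142 ± 29.1 to 106 ± 22.5 with overlap, and was called lower with the replicate number as a block (limma adjusted p = 0.193, and 0.0249 with the block). AT1G77020, below the filter, was at 31.0 ± 9.61 and 19.9 ± 2.18 with overlap.

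Among the J-domain proteins of the ER, 1 of 4 tested rose, against 13.0% of the tested probe sets of the array. ATERDJ3B, a partner of the ER HSP70 BiP in protein folding, had 380, 286 and 288 in control and 761, 475 and 552 in ozone. Its groups did not overlap (log2 fold change 0.89, SE 0.216, limma adjusted p = 0.0184), but the adjusted p was 0.0710 and 0.0729 in limma without control replicate 2 or 3. ATERDJ2A and ATERDJ2B, which resemble Sec63 of the yeast protein import channel, differed by 0.42 and 0.22 on the log2 scale and were not called (limma adjusted p = 0.375 and 0.470). ATERDJ2A was 62.8, 135 and 125 in control and 101, 144 and 174 in ozone; it was higher in ozone in each of the 3 pairs of equal number, and passed with the block (limma adjusted p = 0.0461, and 0.0690 with the block and no filter). AT5G49060 was at 39.1 ± 11.8 in control and at 37.4 ± 6.01 in ozone (SD, n = 3 each).

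Other J-domain loci had low or high control levels. AT1G71000 was at 3.70, 6.50 and 9.60 in control and at 58.2, 65.4 and 43.3 in ozone. It lay below the filter in spite of this 8.43-fold difference of means, and passed in the fit without it (log2 fold change 3.16, limma adjusted p = 0.00269). AT3G14200 went from 10.5, 17.4 and 19.1 to 60.3, 123 and 40.1 (log2 fold change 2.14, SE 0.423, limma adjusted p = 0.00826). AT1G56300, the brightest of the J-domain loci in control, was at 527, 406 and 411 in control and 689, 499 and 449 in ozone. Its groups overlapped and it did not pass (log2 fold change 0.27, limma adjusted p = 0.360).

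By compartment, the cytosol had 12 of 22 listed loci with a probe set of their own. Without the filter 6 of the 12 were called higher and 0 lower, against 8.34% and 8.04% of all probe sets. The ER had 6 of 11 listed loci, and BIP1, BIP2 and BIP3 were among those without a probe set of their own. Of the 6, the HSP70-like AT4G16660 and ATERDJ3B were called higher, both by less than 2-fold. The 5 log2 fold changes above 2 belonged to the cytosolic AT2G29500 and AT2G20560, the mitochondrial AT5G51440, and AT1G71000 and AT3G14200, whose compartment is not given here. All 5 had control levels below 31.2. With 16 added to every signal AT2G29500 (3.35) and AT5G51440 (2.16) remained above 2, while AT2G20560, AT1G71000 and AT3G14200 had 1.63, 1.66 and 1.42, less than the 1.94 of the bright AT3G09440. A difference between compartments was not tested.

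**Figure D3:**
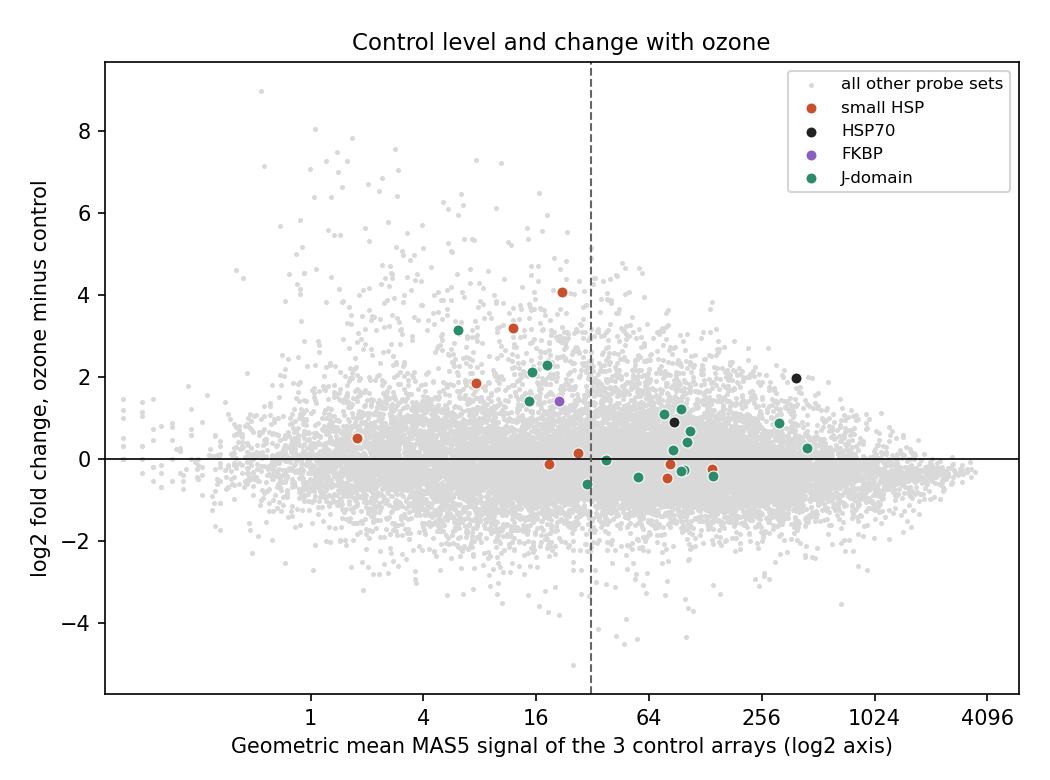
Log2 fold change (ozone minus control) against the geometric mean signal of the 3 control arrays (log2 axis) for all probe sets (grey) and the 29 chaperone loci (coloured by class); the dashed line marks the filter level of 31.2. The 13 loci called higher without the filter had arithmetic control means from 6.60 to 418. The geometric mean plotted here lay left of the line for 7 of them.

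The size of a change depended on how dim signals were treated. For the 13 loci called higher without the filter, log2 fold changes ran from 0.68 to 4.07, or from 0.60 to 3.35 with 16 added to every signal, while the count was again 13 higher and 0 lower of the 29, against 8.25% and 8.09% of all probe sets. The largest shift was that of AT1G71000, from 3.16 to 1.66, followed by AT5G51440, from 3.19 to 2.16, and AT1G53540, from 1.86 to 0.88. AT3G09440, bright in control, had 1.99 and 1.94. MAS5 signals in this dim range hold much noise, so folds against control levels below 31.2 are imprecise.

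Ozone arrays did not rank alike across the risers. Of the 13, 9 were highest in ozone replicate 2, 4 in ozone replicate 1 and 0 in ozone replicate 3. The 4 peaking in replicate 1 were all J-domain loci: AT4G28480, ATERDJ3B, AT1G21080 (by 0.1 of a signal unit, 232.7 against 232.6) and AT1G76700. The other J-domain risers, AT2G20560 (102.6 against 102.2 in replicate 1), AT3G14200 and AT1G71000, were highest in replicate 2. The ranking of ozone arrays over other probe sets is not given here.

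The rest of the folding network was read from lists of 105 loci, of which 28 were measured by a gene-specific probe set and 21 could be tested; 6 rose and 2 fell, against 13.0% and 14.9% of the tested probe sets. Without the filter 7 of the 28 were higher and 1 was lower, against 8.34% and 8.04%. No heat shock factor, HSP90 or HSP100 locus of these lists was analysed here. Among 2 further HSP70 loci, the cytosolic Hsp70-2 (AT5G02490) rose from 87.4, 144 and 141 to 863, 993 and 953 (log2 fold change 2.95, limma adjusted p = 0.000132), while AT1G11660 did not pass (0.14). Of 7 tested co-chaperones 3 rose: Fes1A, a nucleotide exchange factor of cytosolic HSP70 (log2 fold change 2.73), the immune co-chaperone SGT1A (1.86) and Hop2, which links HSP70 to HSP90 (1.02). Hop3, a relative of Hop2 that lay below the filter, was at 16.7, 14.6 and 10.4 in control and at 58.4, 104 and 56.4 in ozone, without overlap, and passed in the fit without the filter (log2 fold change 2.36, limma adjusted p = 0.00353, or 1.54 with 16 added). Hop1 had -0.37 and did not pass (limma adjusted p = 0.108).

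In the list of ER folding and unfolded protein response genes, 14 of 19 loci had no probe set of their own. Where 13.0% of the tested probe sets of the array rose and 14.9% fell, 2 of the 5 tested loci rose and 0 fell. These were the transcription factors of the unfolded protein response BZIP60 (log2 fold change 1.98) and BZIP28 (1.01); the call of BZIP28 was lost without ozone replicate 2 or control replicate 3 (adjusted p = 0.0563 and 0.0512 in limma). The calnexin locus AT5G07340, the calreticulin CRT1b and BZIP17 had -0.28, -0.14 and 0.25, and 0 of these 3 passed. Of 2 chaperonins, the plastid subunit Cpn60beta2 fell from 529 ± 11.1 to 299.7 ± 45.9 (SD, n = 3 each; log2 fold change -0.83, limma adjusted p = 0.00759) and Cpn60beta3 did not pass (-0.30). Of 3 tested loci with an alpha-crystallin domain outside the small HSP set, AT1G20870 fell (-0.62, limma adjusted p = 0.0464). Its call was lost in the unfiltered fit (0.0981), with quantile normalization or median centring (0.0672 each) and in most fits with 1 array left out (adjusted p from 0.0438 to 0.160 in limma). The others, AT5G54660 and AT1G54850, did not pass. Both tested J-domain loci outside the set, AT2G20550 and AT3G47940, differed by 0.22 and 0.04 on the log2 scale and were not called.

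**Figure D4:**
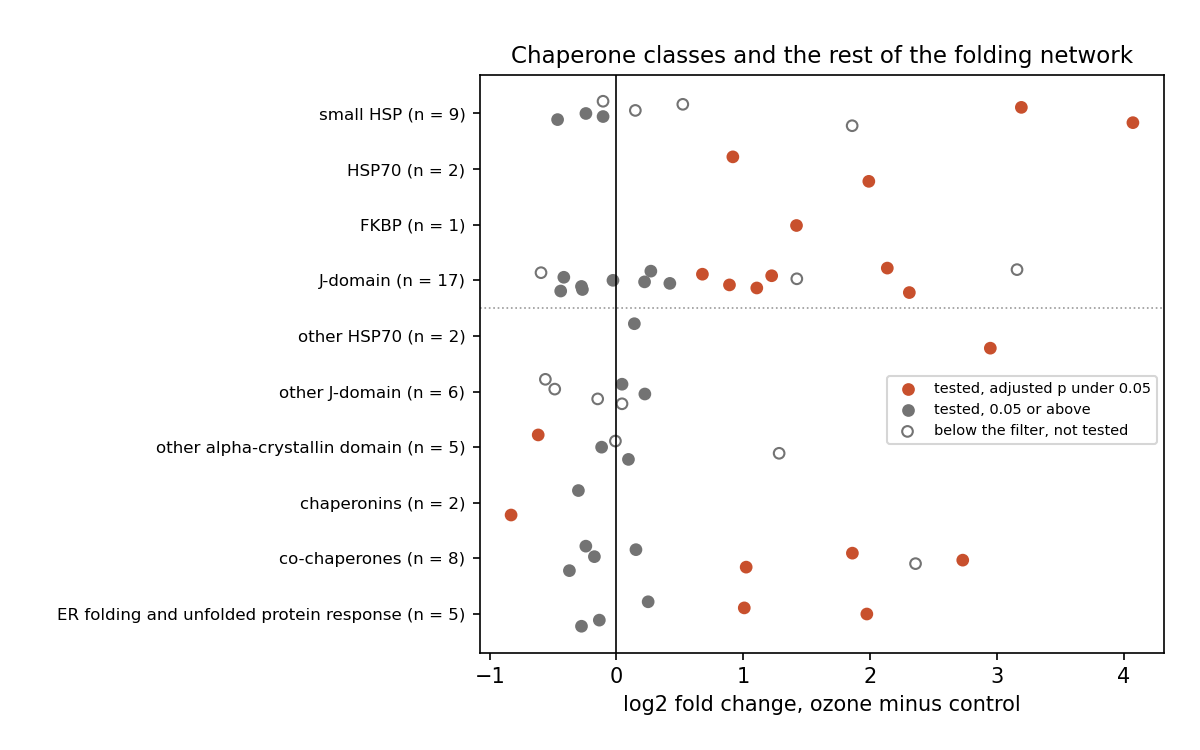
Log2 fold change (ozone minus control) of each locus in the 4 chaperone classes (above the dotted line) and in 6 further lists of the folding network (below it); red points passed an adjusted p under 0.05, grey points did not, and open points lay below the filter. Both the small HSP and the J-domain class hold steep risers beside loci near 0.

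Tissue markers were read beside these values. Of 3 root markers the expansin EXPA7 fell (log2 fold change -0.94, limma adjusted p = 0.0101, and 0.0506 without control replicate 3), while EXPA18 and PYK10 had -0.57 and -0.33; the leaf marker LHCB4.1 had -0.27, and for guard cells FMA and AT1G22690 had -0.34 and -0.44. With the block 2 of the 3 root markers, LHCB4.1 and 1 of the 2 guard cell genes were lower. The same fit called 30.0% of all tested probe sets lower. Their part in the chaperone values was not tested. In whole seedlings, more or fewer cells of a type cannot be told apart from more or less RNA per cell. Genes often used as references differed little and 0 of 3 passed, with log2 fold changes of 0.09 for PEX4, -0.13 for AT4G34270 and -0.21 for AT2G28390.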

How the data were processed

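The authors deposited signal intensities that are linear, with 1 value for each probe set in each sample; the submitters' processing notes give MAS5 as the tool, with no version. Detection calls and scanner files were not used. Of 22810 probe sets 64 are array controls and were left out, and 95 zeros took the value of the lowest nonzero signal on that array. Probe sets were named through the platform annotation, which assigns 13513 to 1 gene, 503 to several and leaves 8730 unnamed here; 13436 matched a RefSeq locus by gene identifier (TAIR10.1, names only). All 29 loci had a probe set of the kind ending in _at. Where a locus of the array had several, the one with the highest mean stood for it. Class and compartment come from general knowledge of the loci.

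Log2 signals were compared without further normalization by limma 3.58.1 in R 4.3.3 (lmFit, eBayes with a trend, two-sided), restricted to probe sets whose mean log2 signal reached the 40th percentile. The code was tested on simulated data. Every member with a probe set may be named; of the other lists, the 2 smallest p per direction or, with at most 4 tested loci, all; Hop2, Hop3 and BZIP17 fall outside this rule and were named after their values were seen. Members and lists were chosen with earlier results of these data known. Replicate numbers are in the sample titles without a stated meaning; deviations from the group means correlated with r = 0.747, 0.374 and 0.439 for numbers 1, 2 and 3. Ozone 3 with control 2 (0.412) and ozone 2 with control 3 (0.368) correlated about as strongly, so only number 1 stood apart and the values do not tell numbers 2 and 3 from a crossed pairing; results of a blocked fit stand beside calls that it changes. Settings varied were the normalization (quantile or median), 16 or 64 added to every signal, the filter and the variance model, the block, and leaving out arrays. The number of arrays limits precision, and since separate cultures are not stated, p-values cover only the variation among these 6 samples, possibly technical.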

Additional observations from a re-analysis of the deposited data

Results flagged for a closer look

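A probe set that the annotation assigns to 2 of the listed cytosolic class I small HSP loci together was outside the comparison, since neither gene can be named from it. It drew attention because its signal was far above the control arrays on every ozone array: 3.00, 4.60 and 12.8 in control against 226, 222 and 137 in ozone (replicates 1, 2 and 3). The log2 fold change was 5.08 (SE 0.502, limma adjusted p = 0.000422). With control signals below 31.2, the probe set passed the filter through its ozone signal. Fitted without the filter, the adjusted p in limma was 0.00111. With 16 added to every signal as well, the log2 fold change was 3.20 (limma adjusted p = 0.000606). The means of this probe set were 6.80 ± 5.26 and 195 ± 50.03 (SD, n = 3 each).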

How the results depend on the processing

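In the 19 alternative settings, 9 of the 11 chaperone loci called higher kept their call in every setting that tested them; the exceptions were ATERDJ3B and AT1G76700, each lost without 1 of 2 arrays. Loci called higher numbered 9 to 11 and J-domain loci 4 to 6 when 1 array was left out, with 2 small HSP and 2 HSP70 loci in each case and 0 called lower. With the filter at the 60th percentile 16 chaperone loci were tested, and 7 were higher, 1 of them a small HSP. The whole array then had 2969 calls, both directions together. Array shares by direction are not given for this setting or for leaving out arrays. With the replicate block 2 chaperone loci were lower (1 of them a J-domain locus), or 1 without the filter, again a J-domain locus. On the whole array the block gave 6699 calls against 3816 without it. In the fits without the filter these counts were 6594 and 3726. Leaving out 1 array gave 2246 to 3690 calls, fewest without ozone replicate 2 (2246), control replicate 3 (2273) and control replicate 2 (2408). The block changed no call of a tested chaperone locus other than AT1G54050, AT4G39150 and ATERDJ2A. Values near 0 changed sign: AT4G21870 ranged from -0.51 to 0.25 with 1 array left out, and AT5G49060 from -0.30 to 0.15; AT5G49060 was 0.054 with quantile normalization, 0.047 with median centring and 0.15 without both replicate 1 arrays, a setting chosen after the data were seen, as were the combinations of no filter with the block or with 16 added. The cause was not tested. Of the 7 loci below the filter 2 were called without it, AT1G53540 and AT1G71000. The fits with 1 array left out kept the filter, so the dependence of these 2 calls on 1 array was not tested. Dim control signals limit the precision of the folds.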
